A study of Rattus norvegicus with 6 samples.

Results

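The p53 target genes considered here are Cdkn1a, Mdm2, Gadd45a, Ccng1, Bax, Phlda3, Sesn1 and Tp53inp1. Their probe sets were chosen by name: every probe set whose platform annotation gives exactly 1 gene symbol, that symbol being a gene of this list. This gave 11 probe sets of 7 genes out of 31042 on the array. Of these 11, 9 lay above the filter on low values (a mean over the 6 arrays above 2.82 on the log2 scale) and were tested among 18625 probe sets. Bax, the pore-forming member of the Bcl2 family, had 0 probe sets with its symbol alone, because its 1 probe set is annotated to a further gene as well. It is therefore not reported. The probe set of Tp53inp1 and a minor probe set of Sesn1 lay below the filter.

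The arrays measured liver RNA of male Sprague Dawley rats dosed by gavage with tienilic acid (TA, 100 mg/kg), a uricosuric diuretic withdrawn because of liver toxicity, or with its sodium bicarbonate vehicle. Livers were collected 6 h after 1 dose, or at 24 h with the 2 doses given at 0 and 16 h. At either time, 2 treated rats were hybridised separately and 2 vehicle rats as 1 RNA pool, so that 6 arrays represented 8 animals. By its title, the series asks about early gene induction and a possible danger response, and says nothing of p53.

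The transcription factor p53 is held low by Mdm2, a ubiquitin ligase that is itself a p53 target, and is stabilised by DNA damage and other stresses. It then induces arrest genes such as Cdkn1a, which encodes the cyclin-dependent kinase inhibitor p21, together with genes of DNA repair, apoptosis and redox defence. In liver, Cdkn1a, Mdm2, Ccng1 and Phlda3 are widely used readouts of genotoxic exposure, whereas Cdkn1a and Gadd45a also answer to other transcription factors.

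The p53 response element is a pair of decamers, each with 3 purines, C, 2 bases that are A or T, G and 3 pyrimidines, a form that reads the same on both strands. RefSeq promoter windows on the GRCr8 build, 250 bases before to 50 after an annotated start, were found for 6 of the 8 genes. A decamer without mismatch occurred in 4 of these 6 windows, those of Cdkn1a, Gadd45a, Ccng1 and Sesn1, and in 7.98% of all 33469 windows. A pair with at most 1 mismatch and at most 13 bases between its decamers occurred in 3 of the 6 and in 0.565% of all. The genes are known p53 targets, so these shares describe how they were picked. The windows of Cdkn1a, Ccng1 and Gadd45a are shown because they hold such a pair while the transcripts behaved differently. Only bases upstream of the annotated gene are printed, 5′ to 3′ on the gene's strand, with the pair in capitals. The Cdkn1a stretch is chr20:7150682-7150819 (plus strand), that of Ccng1 chr10:25684877-25685126 (minus strand) and that of Gadd45a chr4:97486800-97487049 (minus strand).
Cdkn1a: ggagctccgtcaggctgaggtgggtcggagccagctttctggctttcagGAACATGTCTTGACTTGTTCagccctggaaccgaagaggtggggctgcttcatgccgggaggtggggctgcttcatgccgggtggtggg
Ccng1: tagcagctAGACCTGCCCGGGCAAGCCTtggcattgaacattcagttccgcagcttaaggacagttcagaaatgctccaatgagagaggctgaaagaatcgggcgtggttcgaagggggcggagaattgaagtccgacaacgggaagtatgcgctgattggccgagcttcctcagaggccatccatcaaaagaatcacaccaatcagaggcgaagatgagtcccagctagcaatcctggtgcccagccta
Gadd45a: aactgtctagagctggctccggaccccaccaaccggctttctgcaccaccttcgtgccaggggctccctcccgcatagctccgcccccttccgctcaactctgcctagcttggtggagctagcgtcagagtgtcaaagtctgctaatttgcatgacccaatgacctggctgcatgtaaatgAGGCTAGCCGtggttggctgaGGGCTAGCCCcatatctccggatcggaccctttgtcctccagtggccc
The decamers in capitals adjoin in Cdkn1a and Ccng1 and are separated in Gadd45a. The Cdkn1a stretch also holds an overlapping, separated pair with 1 mismatch, from -223 to -192 relative to the start, which is left in lower case except for the decamer that both pairs share. A match is a description of the letters and not evidence of binding. The windows of Mdm2 and Phlda3 held no such decamer, which says only that these letters are not in these windows.

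Values below are log2 levels as deposited, and differences are TA minus the vehicle pool of the same time. Errors are limma standard errors, pooled over both times from how far the treated rats of a time differ and moderated across probe sets, since neither vehicle pool has a replicate. A probe set therefore has the same error at 6 h and 24 h. Array medians lay between 3.27 and 3.31. By the array settings, the vehicle pool of 6 h and animal 1 of 6 h shared a fluidics run and the 4 other arrays another, so the comparison of 24 h lay within 1 run and that of 6 h spanned 2. Hepatocyte markers were high on every array, with Alb (albumin) between 16.54 and 16.67.

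Cdkn1a had the widest range of the 9 tested probe sets, 2.27 on the log2 scale. On its main probe set (1388674_at) the level was 7.08 in the vehicle pool of 6 h and 6.69 and 6.50 in the treated animals of that time. At 24 h it was 7.80 in the vehicle pool and 8.77 and 8.52 in the treated animals. Both animals thus lay below their pool at 6 h and above it at 24 h, and all 3 arrays of 24 h lay above all 3 of 6 h. The difference was -0.48 ± 0.17 at 6 h (n = 2 treated animals, 1.40-fold lower) and 0.85 ± 0.17 at 24 h (1.80-fold higher). Neither passed limma's test across all probe sets, with adjusted p = 0.847 at 6 h and 0.904 at 24 h. The 24 h value ranked 396th in size among 18625. Within the shared fluidics run, the 6 h difference was -0.38. With the pools exchanged between the times the differences were -1.20 and 1.57. The pool of 24 h was 0.72 above that of 6 h, so this exchange could only enlarge both differences and cannot check their direction.

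The change of direction between the times amounted to 1.33 ± 0.24 for this probe set, with a 95% interval unadjusted for the number of probe sets of 0.64 to 2.03 (limma, adjusted p = 1.00). Over all tested probe sets, 15.5% had both animals on one side of the pool at one time and on the opposite side at the other. The vehicle pools themselves differed by 0.72. A second Cdkn1a probe set (1387391_at), with 5 arrays near the low end of the scale, did not follow the main one. Its 6 h pool read 2.93 with animals at 2.89 and 2.93, and its 24 h pool read 3.68 with animals at 3.04 and 2.75. Its difference at 24 h was -0.79 ± 0.16 (adjusted p = 0.904), opposite in sign to that of the main probe set, and the vehicle pool of 24 h was the only array above 3.04. Against the vehicle pool of 6 h the same animals differed by -0.03. Which probe set tracks the Cdkn1a transcript better was not tested.

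**Figure D1:**
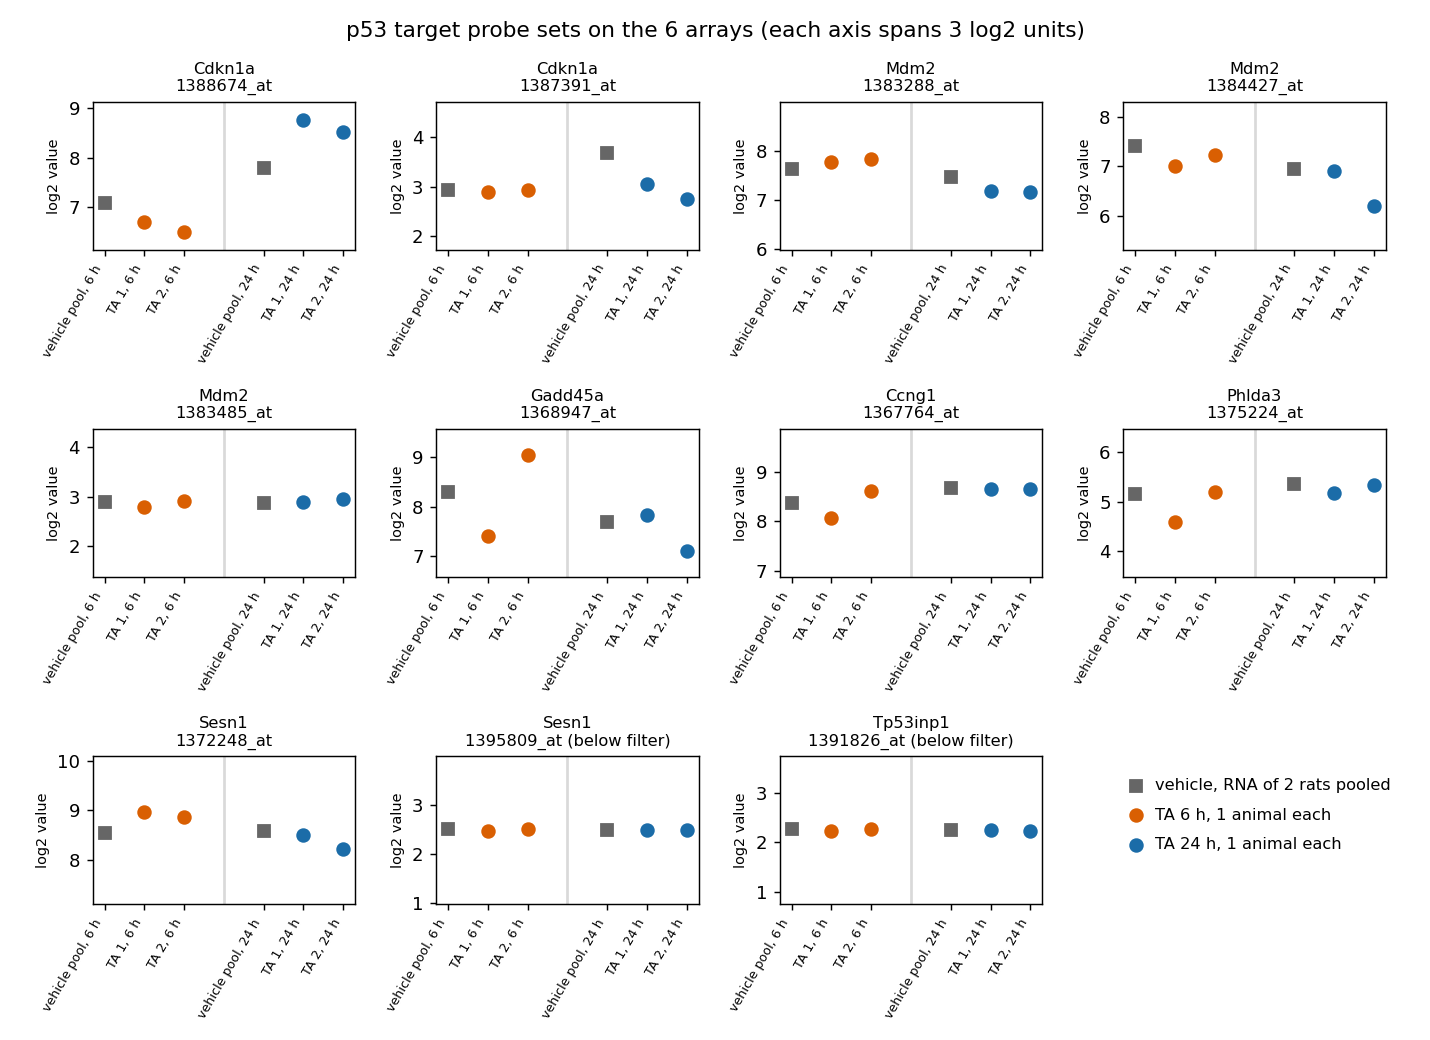
Log2 value (vertical axis, each spanning 3 units) of the 11 p53 target probe sets on the 6 arrays; grey squares are vehicle pools, orange and blue circles the treated animals of 6 h and 24 h. The main Cdkn1a probe set lay between 6.50 and 7.08 at 6 h and between 7.80 and 8.77 at 24 h, while Ccng1 stayed between 8.08 and 8.67.

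Mdm2, the feedback inhibitor of p53, was measured by 3 probe sets. On 1383288_at it was at 7.62 in the vehicle pool and 7.78 and 7.82 in the treated animals at 6 h, and at 7.46 in the pool and 7.18 and 7.16 in the animals at 24 h. The animals of a time lay within 0.05 of each other, slightly above the pool at 6 h and below it at 24 h. The differences were 0.18 ± 0.09 and -0.29 ± 0.09 (limma, adjusted p = 0.973 and 0.926), the reverse of the order seen for the main Cdkn1a probe set. On 1384427_at the level was 7.41 in the pool and 7.01 and 7.23 in the animals at 6 h, and 6.94 in the pool and 6.91 and 6.20 in the animals at 24 h. Its differences were -0.30 ± 0.35 and -0.39 ± 0.35 (adjusted p = 1.00 at both times), and that of 24 h came almost wholly from animal 2, since animal 1 differed by -0.04. The 3rd probe set, 1383485_at, spanned 0.18 over the 6 arrays close to the filter. The 2 brighter probe sets of Mdm2 had opposite signs at 6 h and the same sign, downward, at 24 h.

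Gadd45a, which encodes a small protein of growth arrest and DNA repair, differed more between the treated animals than from the vehicle. At 6 h the vehicle pool read 8.29, animal 1 read 7.41 and animal 2 read 9.04. At 24 h it was at 7.68 in the pool, 7.83 in animal 1 and 7.11 in animal 2. The animals lay on either side of the pool at both times, and at 6 h they were 3.09-fold apart, a gap that 0.623% of tested probe sets reached. The mean differences were -0.06 ± 0.82 and -0.21 ± 0.82 (limma, adjusted p = 1.00 at both times), and the 95% interval of 6 h ran from -2.44 to 2.31. Its family member Gadd45g, named after its values were seen, had the same arrangement on a larger scale: 10.21 in the vehicle pool of 6 h, 6.80 in animal 1, 10.38 in animal 2, and between 7.03 and 7.47 on the arrays of 24 h.

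Ccng1, cyclin G1, which directs a phosphatase to Mdm2, read 8.37 in the 6 h pool, 8.08 in animal 1 and 8.62 in animal 2. At 24 h the pool was at 8.67 and the animals at 8.65 and 8.67. The 3 arrays of 24 h could hardly be told apart, and the difference was -0.01 ± 0.26 (limma, adjusted p = 1.00) with a 95% interval of -0.78 to 0.76. The animals were 0.54 apart at 6 h and 0.013 at 24 h, so this error comes largely from 6 h. Phlda3, which competes with Akt for membrane lipids, was at 5.16 in the pool and 4.59 and 5.20 in the animals at 6 h, and at 5.35, 5.18 and 5.34 at 24 h. The differences were -0.26 ± 0.30 and -0.09 ± 0.30 (adjusted p = 1.00 at both times). Ccng1 and Phlda3 thus lay on either side of the pool at 6 h and slightly below it at 24 h, by -0.17 at most (animal 1, Phlda3). The other readouts of genotoxic exposure named above were Cdkn1a and Mdm2. At 24 h the Cdkn1a probe sets differed by 0.85 and -0.79, and those of Mdm2 by -0.29, -0.39 and 0.05.

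In Gadd45a, Ccng1 and Phlda3 alike, animal 1 of 6 h was below the vehicle pool and animal 2 above it. Animal 1 differed from the pool by -0.88, -0.29 and -0.57, animal 2 by 0.75, 0.25 and 0.04. Cdkn1a 1387391_at, Mdm2 1383485_at and the probe sets below the filter had the same order by smaller amounts. In one order or the other, the animals lay on opposite sides of the pool in 7957 of 18625 tested probe sets at 6 h. The array medians were 3.27 in animal 1, 3.29 in the pool and 3.31 in animal 2. The GAPDH 3′ minus 5′ difference, which widens as RNA degrades, was widest in animal 1 (2.26 on the log2 scale, others 1.82 to 2.04). The same difference for actin was not widest there: it was 4.31 in animal 1, 4.33 in the pool of 6 h and 4.17 in animal 2. At 24 h it was 4.34 in the pool and 4.36 and 4.29 in the animals. Animal 2 of 6 h was in another fluidics run than the pool of 6 h. The part of RNA quality or of the fluidics run in the gaps between these animals was not tested.

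Sesn1, sestrin 1, which restrains mTORC1 and supports peroxide defence, read 8.55 in the 6 h pool, with the treated animals above it at 8.98 and 8.87. At 24 h it was at 8.59 in the pool and 8.49 and 8.22 in the animals, both below it. The 2 vehicle pools differed by 0.04, so for this gene the choice of pool mattered little. The differences were 0.37 ± 0.16 and -0.23 ± 0.16 (limma, adjusted p = 0.914 and 1.00), and the change between the times was -0.60 ± 0.23 (adjusted p = 1.00). The minor Sesn1 probe set stayed between 2.47 and 2.51, at the low end of the scale where differences are compressed. Tp53inp1, a cofactor of p53 in autophagy and apoptosis, was likewise between 2.22 and 2.27 on all 6 arrays, so its response could not be read.

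**Figure D2:**
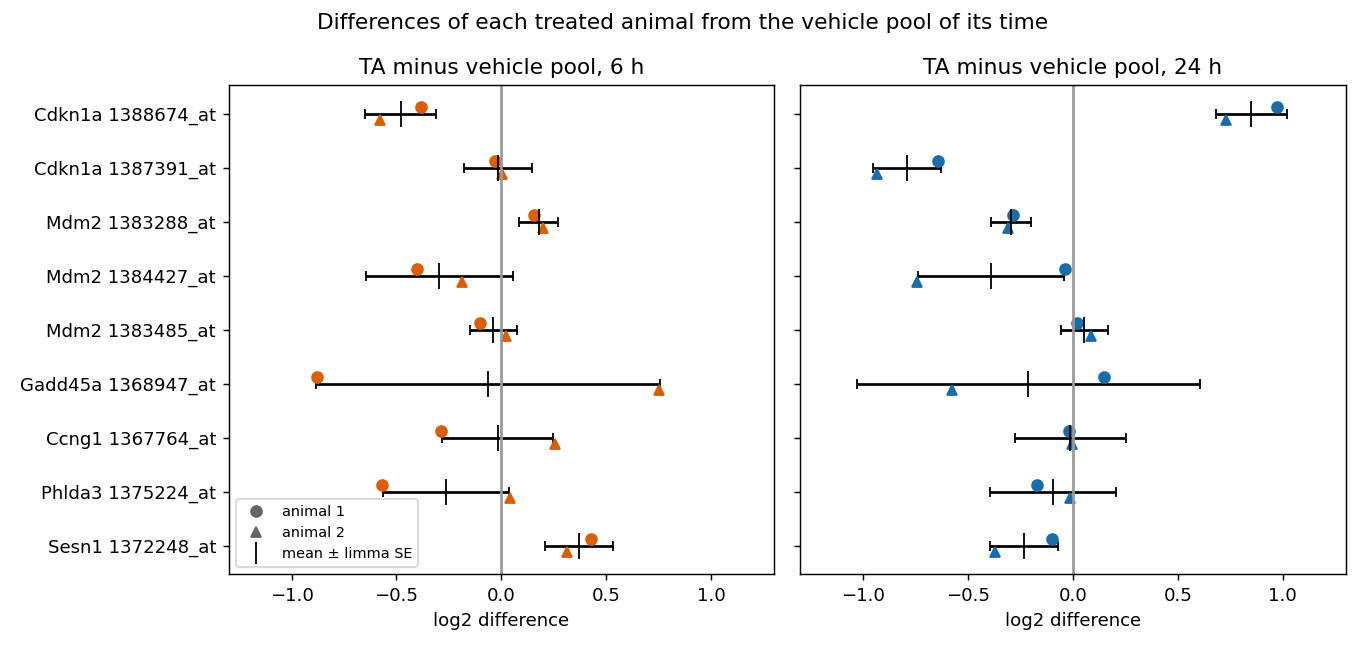
Log2 difference from the vehicle pool of the same time (horizontal axis) for the 9 tested p53 target probe sets at 6 h (left) and 24 h (right); circles are animal 1, triangles animal 2, and bars the mean ± limma standard error. The main Cdkn1a probe set went from -0.48 at 6 h to 0.85 at 24 h, and the Gadd45a animals of 6 h stood at -0.88 and 0.75.

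At 6 h, 2 of the 9 tested probe sets had both treated animals above the pool (Mdm2 1383288_at and Sesn1) and 2 had both below it (Cdkn1a 1388674_at and Mdm2 1384427_at), against 21% and 36.3% of all tested probe sets. At 24 h, 2 were above (Cdkn1a 1388674_at and Mdm2 1383485_at) and 6 below, against 24.6% and 36.8%. The 6 were the other Cdkn1a probe set, 2 of Mdm2, Ccng1, Phlda3 and Sesn1, of which Ccng1 lay 0.02 or less below. The median difference over the 9 was -0.04 at 6 h and -0.21 at 24 h, beside -0.02 and -0.01 over all tested probe sets. It differed between the animals, at -0.29 and 0.04 in animals 1 and 2 of 6 h and at -0.04 and -0.31 in animals 1 and 2 of 24 h. The median at 24 h was -0.03 against the vehicle pool of 6 h and -0.09 over all 11 probe sets without the filter. Because both animals of a time share a pool, their agreement in direction is not independent. Limma called 0 of the 9 at either time and for the change between times, against 0% of all probe sets at 6 h and 0.00537% (1 of 18625) at 24 h and for the change between times. At an unadjusted p under 0.05, the 9 counted 0 at 6 h and 3 at 24 h (both Cdkn1a probe sets, of opposite sign, and Mdm2 1383288_at), and all probe sets 5.84% and 5.28%.

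The treated animals of 24 h were also compared with those of 6 h, the only contrast with 2 separately hybridised arrays on both sides, which was added after the values were seen. Dose number, time of day and time on TA differ together in it and cannot be told apart. Animal 1 of 6 h was also in another fluidics run than both animals of 24 h. The main Cdkn1a probe set was 2.05 ± 0.14 higher at 24 h (4.14-fold, limma, adjusted p = 0.136) and ranked 50th in size among 18625. Cdkn1a 1387391_at differed by only -0.02 ± 0.13. Mdm2 1383288_at differed by -0.63 ± 0.08 (adjusted p = 0.176) and Sesn1 by -0.57 ± 0.13 (adjusted p = 0.232). Both animals of 24 h lay above both of 6 h in 2 of the 9 probe sets (Cdkn1a 1388674_at and Ccng1) and below in 3 (2 of Mdm2, and Sesn1), against 20.6% and 22% of all. Limma called 0% of probe sets in this contrast, although 14.8% had an unadjusted p under 0.05. For the main Cdkn1a probe set, 0.72 of its 2.05 was also present between the vehicle pools.

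Genes with a like profile were sought for the 3 tested probe sets that spanned at least 1 on the log2 scale, among 2152 probe sets of 1 gene symbol that also spanned at least 1. These correlations run over 6 arrays that share time and dosing, and are a description. The main Cdkn1a probe set was followed most closely by Gins1, of the replicative helicase (r = 0.996), Ier5, an immediate early gene (r = 0.990), and Noct, nocturnin, a gene of daily rhythm (r = 0.989). Noct was at 2.65, 2.17 and 2.31 at 6 h and at 5.02 in the pool and 7.74 and 7.06 in the animals at 24 h. Gadd45a was followed by Gclm, a subunit of the enzyme of glutathione synthesis (r = 0.97), Zswim1 (r = 0.961) and Myc (r = 0.958), the latter at 6.50 in the pool of 6 h, 5.48 in animal 1 and 7.60 in animal 2. Mdm2 1384427_at was followed by Irf7, an interferon regulatory factor (r = 0.995), Plpp2 (r = 0.991) and Dag1 (r = 0.989).

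Beyond these targets, 64 further genes of the p53 network were listed in 5 groups by role, of which 47 had a probe set of their own and 40 passed the filter. Limma called 0 of the 40 at either time, and 3 had an unadjusted p under 0.05 at each time, beside 5.84% and 5.28% of all probe sets. Both animals were above the pool in 10 and below in 13 at 6 h, and in 11 and 16 at 24 h, beside 21%, 36.3%, 24.6% and 36.8% of all probe sets in the same order, with medians of -0.01 and -0.01.

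Among the regulators (9 tested), Mdm4, the Mdm2 homologue that masks the p53 activation domain, was below the pool at both times. It was at 7.44 in the pool and 6.88 and 6.96 in the animals at 6 h, and at 7.34, 6.94 and 6.94 at 24 h, below both vehicle pools on all 4 treated arrays. Its differences were -0.52 ± 0.10 and -0.40 ± 0.10 (limma, adjusted p = 0.760 and 0.904). Kat5, an acetyltransferase of p53, differed by 1.33 ± 0.30 at 6 h, from 5.21 in the pool to 6.78 and 6.29 (adjusted p = 0.780), while the vehicle pool of 24 h was at 6.22. Hipk2, a kinase of p53, differed by 0.33 at 6 h, by 0.60 in animal 1 and 0.05 in animal 2. At 24 h Chek1, the checkpoint kinase, differed by 0.55 ± 0.17 (adjusted p = 0.923) and Ep300, a coactivator, by -0.34.

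Among the genes listed under cell cycle arrest (7 tested), Cdkn1b, the inhibitor p27, read 9.34 in the 24 h pool and 8.92 and 8.57 in the animals. This was a difference of -0.60 ± 0.27 (limma, adjusted p = 1.00). It was listed by its role in arrest, and whether p53 acts on it was not tested. Zmat3 differed by -0.10 at 6 h, and Gadd45b, a relative of Gadd45a, by 0.15 at 6 h and -0.01 at 24 h. Among the apoptosis genes (10 tested), Aen, a nuclease, was at 6.16 in the pool of 24 h and 6.49 and 7.16 in the animals (0.67 ± 0.38). Bid, a death agonist of the Bcl2 family, was above the pool at both times, by 0.23 and 0.35. Apaf1, the apoptosome scaffold, was below it at both, with differences of -0.24 and -0.39. Pidd1, near the low end of the scale (mean 2.91), differed by -0.58 at 24 h. Fas, the death receptor, differed by -0.09 at 6 h and -0.20 at 24 h.

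Among the DNA repair genes (5 tested), Ddb2, the damage-binding subunit, was at 7.11 in the pool of 6 h and 6.79 and 6.63 in the animals, a difference of -0.39 ± 0.38. Pcna, the replication clamp, differed by 0.05 at 6 h and 0.30 at 24 h, Xpc by -0.25 at 24 h, and Fancc by 0.14 and -0.14. Among the targets of metabolism and redox (9 tested), Gls2, liver glutaminase, had the arrangement of the main Cdkn1a probe set. It was at 12.83 in the pool and 12.42 and 12.48 in the animals at 6 h, and at 12.53, 13.10 and 13.13 at 24 h, differences of -0.38 ± 0.10 and 0.58 ± 0.10 (limma, adjusted p = 0.798 and 0.904). Steap3, a ferrireductase, was above the pool at both times by 0.16 and 0.32. Ninj1 differed by -0.24 at 6 h and Tsc2 by 0.28 at 24 h. Gdf15, the stress cytokine, named after its values were seen, lay between 3.73 and 3.76 on every array, near the low end of the scale.

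**Figure D3:**
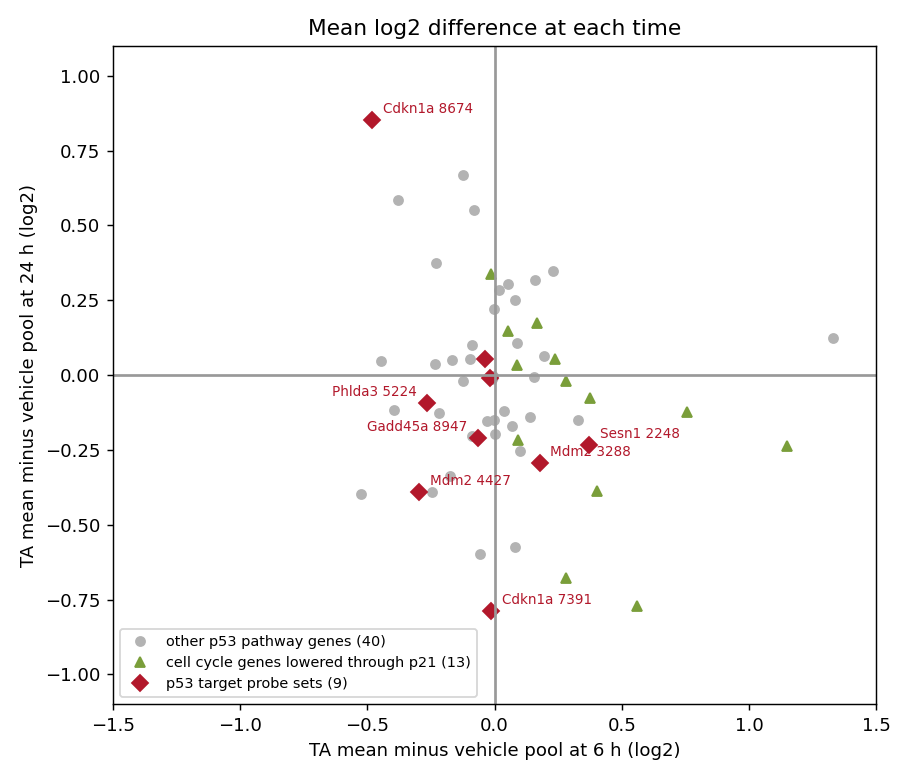
Mean log2 difference of TA from the vehicle pool at 6 h (horizontal axis) and 24 h (vertical axis) for the 9 p53 target probe sets (red diamonds, the larger ones labelled by gene and last 4 digits of the probe set), 40 further p53 pathway genes (grey circles) and 13 cell cycle genes (green triangles). The main Cdkn1a probe set stands at -0.48 and 0.85, apart from Mdm2, Sesn1, Ccng1 and Phlda3. Gadd45g, at -1.62 and 0.19, is counted among the 40 but lies beyond the horizontal axis.

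Cell cycle genes that are known to be lowered through p21 were set beside Cdkn1a. Of the 13 tested, 9 had both treated animals above the pool at 6 h and 0 below, and 3 were above and 7 below at 24 h. The shares over all probe sets were 21% and 36.3% at 6 h and 24.6% and 36.8% at 24 h. Their median difference was 0.28 at 6 h and -0.08 at 24 h, opposite in sign to the main Cdkn1a probe set at both times, and limma called 0 of 13 at either. Bub1, a mitotic checkpoint kinase, differed by 1.15 and -0.24, Aurka, a mitotic kinase, by 0.76 and -0.12, Cenpf, a kinetochore protein, by 0.56 and -0.77, Mki67 by 0.28 and -0.68, and Top2a, topoisomerase II alpha, by 0.40 and -0.39. The opposition depended on the pools: 11 of the 13 genes were higher in the vehicle pool of 24 h than in that of 6 h. Against the pool of the other time, 8 of the 9 genes above the pool at 6 h were below in both animals, and 6 of the 7 below at 24 h were above. In the treated animals alone, 8 of the 13 genes had both animals of 24 h above both of 6 h. So had the main Cdkn1a probe set, though not Cdkn1a 1387391_at, and 20.6% of all probe sets.

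**Figure D4:**
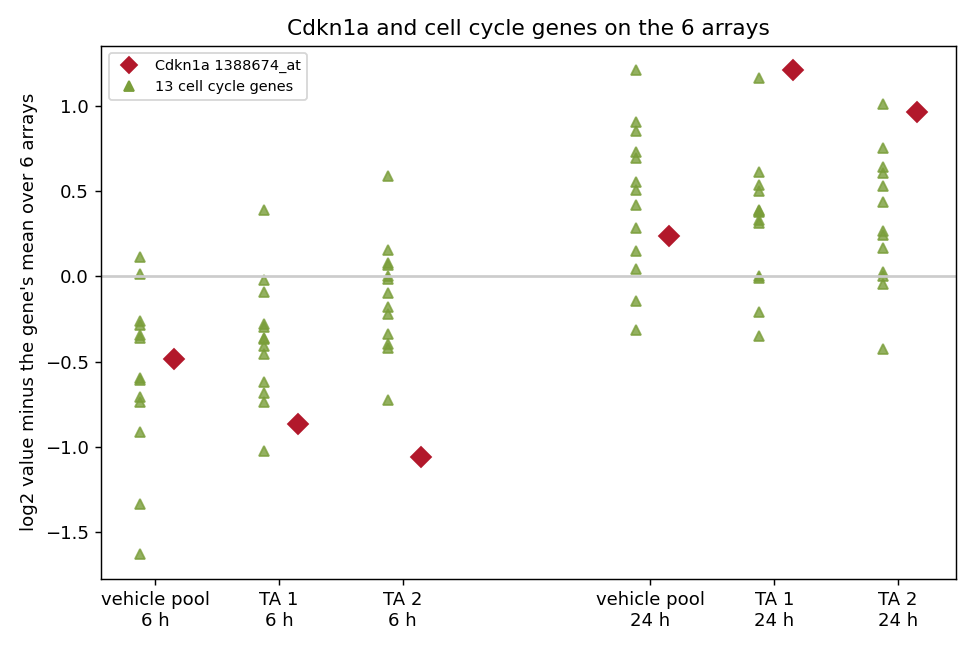
Log2 value minus the gene's own mean over the 6 arrays (vertical axis) for the main Cdkn1a probe set (red diamonds) and 13 cell cycle genes (green triangles) on each array. Cdkn1a lay lowest in the treated animals of 6 h (6.69 and 6.50 before centring) and highest in those of 24 h (8.77 and 8.52), while 11 of 13 cell cycle genes were higher in the vehicle pool of 24 h than in that of 6 h.

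Markers of other liver cells were read on the same arrays, because in tissue RNA fewer cells of a type and less RNA per cell cannot be told apart. Of 6 tested markers of stellate cells and fibroblasts, 5 were below the pool in both animals at 24 h, beside 36.8% of all probe sets. At that time the main Cdkn1a probe set was above the pool and Cdkn1a 1387391_at below it. Summed levels (log2) take in every marker with a probe set, also those below the filter. Those below it were 1 of 7 for stellate cells, 2 of 4 for bile duct and 1 of 3 for neutrophils. The summed stellate level at 24 h was 13.11 in the pool and 12.50 and 12.88 in the animals. Summed macrophage markers were at 12.61 in the pool and 12.37 and 12.82 in the animals, endothelial markers at 12.56, 12.15 and 12.68, and red cell markers at 14.05, 13.51 and 14.29. At 6 h the summed stellate level was 13.45 in the pool, 13.79 in animal 1 and 13.32 in animal 2, with bile duct markers at 9.98, 10.58 and 9.73. Summed neutrophil markers were at 5.08, 5.16 and 5.70 at 6 h and 5.94, 5.09 and 5.50 at 24 h. The part of these markers in the p53 target values was not tested.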

How the data were processed

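The deposited values are log2 expression of 31099 probe sets on 6 Affymetrix Rat230_2 arrays. The submitters' processing notes name affy 1.5.8 in R 2.0.1, with both RMA and GCRMA, and do not settle which one made these values. Low values are compressed, and arrays give no counting depth, so that their number limits the precision. The 57 control probe sets were left out, and probe sets with a mean above the 40th percentile (2.82) were kept. Groups came from the labels. Group means were fitted over all 6 arrays with limma 3.58.1 in R 4.3.3 (2 residual and 1.60 prior degrees of freedom), two-sided, with Benjamini-Hochberg adjustment over 18625 probe sets and calls under 0.05. The procedure was tested on simulated arrays, where the check was on the estimated size of added changes. All added changes were larger than any mean p53 target difference from the pool of its time. Calls at such smaller sizes were not tested. In the lists, a gene was represented by its brightest probe set. From each list, genes called were named, otherwise up to 3 at each time with the largest difference in the same direction in both animals. The members and lists were chosen with earlier results of these data known. Animals with the same number in both times showed no shared deviation (r = -0.08), and numbers were not used to pair them. Alternatives changed the filter, the prior, the normalization, the control pool, a replicate or fluidics term, and left out each treated array. The contrast of TA at 24 h with TA at 6 h was added after the values were seen.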

Additional observations from a re-analysis of the deposited data

Results flagged for a closer look

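These results had all treated animals on one side of the vehicle pool at 6 h and on the other at 24 h, which 15.5% of all tested probe sets had. Values are the TA difference at 24 h minus that at 6 h (log2), and limma's test of this change gave an adjusted p of 1.00 for each. For the p53 targets they were 1.33 for the main Cdkn1a probe set, -0.47 for Mdm2 1383288_at and -0.60 for Sesn1. The list genes below were taken only from those named, up to 3 per list and time with both animals in the same direction. Their number is therefore not a share of the lists. For further p53 network genes the changes were 0.63 for Chek1, 0.96 for Gls2 and 0.27 for Ninj1. They were -0.48 for Hipk2, -0.16 for Gadd45b, -0.66 for Pidd1 and -0.28 for Fancc. Triap1, of the apoptosis list and not among the genes named, also turned sides, with a change of 0.19. Pidd1, Gadd45b and Fancc had means of 2.91, 3.21 and 3.36, close to the filter. Some sides rested on very small differences, such as 0.007 in animal 2 of 6 h and -0.001 in animal 1 of 24 h for Gadd45b. For Pidd1 the highest array was the vehicle pool of 24 h (3.62). For cell cycle genes the changes were -1.39 for Bub1, -0.88 for Aurka, -1.33 for Cenpf, -0.96 for Mki67 and -0.79 for Top2a. No group had enough arrays to look for an outlying array.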

How the results depend on the processing

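Not every alternative was a separate check of direction. The filters and the prior left each probe set's difference unchanged, as did leaving out a treated array of the other time. For the main Cdkn1a probe set and Mdm2 1383288_at, exchanging or merging the pools could only enlarge the differences at both times. With the pools exchanged, those of Mdm2 1383288_at were 0.34 at 6 h and -0.45 at 24 h. The main Cdkn1a probe set at 24 h stayed at 0.85 under these and with the fluidics term. At 6 h the fluidics term and leaving out animal 2 gave the same difference, -0.38 for this probe set. Where both animals of a time lay on the same side of the pool, leaving out either could not turn the sign. The change between times was followed only for probe sets picked because both animals turned sides, so its kept direction is no separate support. Of 21 p53 target values under up to 13 alternatives each, 12 kept their direction in all of them. Among these were the main Cdkn1a probe set, Mdm2 1383288_at and Sesn1 at both times and in their change. None was called under any alternative (smallest adjusted p 0.143).

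Over all probe sets, the count called at 6 h went from 0 to 1 with the vehicle pool of 24 h as control. The count at 24 h (1) became 2 with a trended, robust prior and 0 with a filter at the 60th percentile, with both pools as 1 control group, with the pools exchanged, with the replicate block or with a fluidics term, and 0 to 2 when a treated array was left out. The count for the change between times (1) became 0 with that filter, both pools as 1 group, the replicate block, the fluidics term or any treated array left out. The median over the p53 targets at 6 h was -0.29 with the fluidics term, and -0.29 (without animal 2 of 6 h) to 0.040 (without animal 1) when an array was left out.

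Signs turned as follows. With quantile normalization Ccng1 was at 0.064 (6 h) and 0.0022 (24 h) and Gadd45a at 0.025 (6 h). With both pools as 1 group Ccng1 was at 0.14 and Phlda3 at 0.0035 (24 h), and Gadd45a at 0.24 (6 h). With the pools exchanged Ccng1 was at 0.29 and Phlda3 at 0.10 (24 h), Gadd45a at 0.55 and Mdm2 1384427_at at 0.18 (6 h). With the replicate block Cdkn1a 1387391_at was at 0.049 (6 h). With a treated array left out, 6 h values ran from -0.29 to 0.25 for Ccng1, -0.88 to 0.75 for Gadd45a, -0.57 to 0.040 for Phlda3, -0.10 to 0.024 for Mdm2 1383485_at and -0.033 to 0.0036 for Cdkn1a 1387391_at, and Gadd45a at 24 h from -0.57 to 0.15. The causes were not tested. Neither vehicle pool could be left out, since each time has 1. Probe sets near the low end of the scale limit what their differences can show.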
